A study of Mus musculus with 8 samples.

Results

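The 44 genes described here encode the machinery that compacts chromosomes, holds sister chromatids together, releases them at anaphase and splits the dividing cell. They came by symbol from a list of condensin, cohesin, anaphase-promoting complex (APC/C), mitotic kinase and cytokinesis genes, with no measured value in the rule. Earlier results of these data were known when the genes were chosen. All 44 of 44 symbols were found among the 45777 genes of the deposited table. All 44 are annotated as protein-coding. RNA was sequenced from mouse colonic organoids, which are three-dimensional cultures of colon epithelium grown from isolated crypts in a basement membrane gel.

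The KO group (4 libraries, replicates 5 to 8) came from Reg3a deltaIEC mice, in which Cre recombinase driven by the Villin promoter, active in intestinal epithelium, removes loxP-flanked exons 2 to 4 of Reg3a, a gene for a secreted lectin. The WT group (4 libraries, replicates 13 to 16) came from Reg3a fl/fl mice, so both groups carry the loxP alleles and Villin-Cre is named for the KO mice alone. Donors were male and 9 weeks old, and organoids of at most 15 passages were collected 3 days after passage with no added treatment. The labels give 1 mouse per genotype in 4 wells in one place and 3 mice per genotype in technical triplicate in another, so the p-values speak only of scatter among these 8 libraries, possibly technical, and genotype cannot be told apart from mouse or organoid line.

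Libraries held 37182098 to 49256171 counts. Reg3a had 0 counts in all 8 libraries, which allows up to 3 counts in each, so it could not check the labels. Mitochondrial transcripts took 1.41% to 1.74% of counts in KO and 0.997% to 1.23% in WT, without overlap, and the part of this difference in the results below was not tested. By chi-square per degree of freedom, WT libraries differed from each other by 11.1 to 24.7, KO libraries by 4.96 to 10.7, and libraries of unlike genotype by 25.7 to 41.5. The epithelial markers Epcam, Cdh1, Krt8, Krt18, Krt19, Vil1, Cdx1, Cdx2, Cldn7 and Elf3 were present in every library, at a summed 11608 to 12336 CPM (counts scaled to library size by TMM) in KO and 11420 to 12318 CPM in WT. Of 8 fibroblast and 8 immune cell markers, Col1a2, Dcn, Lum and Cd3e were at 0 throughout.

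Condensin is a ring built on a pair of SMC ATPases that folds mitotic chromosomes, and cohesin is a related ring that holds sister chromatids together from replication to anaphase. The APC/C is a ubiquitin ligase which, with its activator Cdc20, destroys securin and cyclin B, and this frees separase to cut cohesin. In the colon crypt, division is restricted to the lower part, and epithelial cells stop dividing as they move up and differentiate. Transcripts of many of these genes are known to build up in late S, G2 and M phase and to fall in resting cells, while those of the cohesin ring and the APC/C core subunits are present throughout the cycle. The 44 genes were divided by this textbook knowledge into 28 with a cycling transcript and 16 with a transcript present through the cycle. The division was made with earlier results of these data known, so it is not independent of the values below.

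The cycling transcripts were lower in KO, with KO levels of the 26 called genes 13.2% to 25.3% below WT. Of the 28, 26 fell and none rose (edgeR quasi-likelihood test, adjusted p under 0.05 over all genes tested), with a median log2 fold change of -0.33 and a range from -0.42 (Sgo1) to -0.01 (Pttg1). Of the 16 transcripts present through the cycle 2 fell, Smc3 and Ncaph2, and none rose, with a median of -0.08 and a range from -0.20 to 0.04. Together 28 of 44 fell, 0 rose and 16 did not pass, against 8.26% of 14945 tested genes that fell and 7.63% that rose. Their median log2 fold change was -0.28 and that of all genes tested -0.0012. Every KO library lay below every WT library for 25 of the 44 genes, against 10.3% of all tested genes, and none showed the opposite order, against 9.91%. In bulk RNA, fewer dividing cells and less of these transcripts per cell cannot be told apart.

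Changes among the cycling transcripts lay close together. The 26 that fell ranged from a log2 fold change of -0.20 for Ncapd3 to -0.42 for Sgo1, and 44 of the 1234 genes called lower in the whole table fell at least 2-fold, none of them among these. All 44 genes passed the filter on low counts. A step simulated on these libraries with 14811 genes run recovered 46% of genes changed 1.2-fold and 82% of those changed 1.5-fold. The changed genes there were drawn at random and not from the 44, so these shares are not those of the 44 genes. At changes of this size a missed call does not show that a gene was equal. The count of transcripts present through the cycle that fell moved from 2 to 7 after a smooth on transcript length and GC content, which added Smc1a, Rad21, Stag1, Anapc5 and Cdc23, and to 0 when KO replicate 6, 7 or 8 or WT replicate 13 was left out. It was 1 without KO replicate 5 or WT replicate 16.

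**Figure D1:**
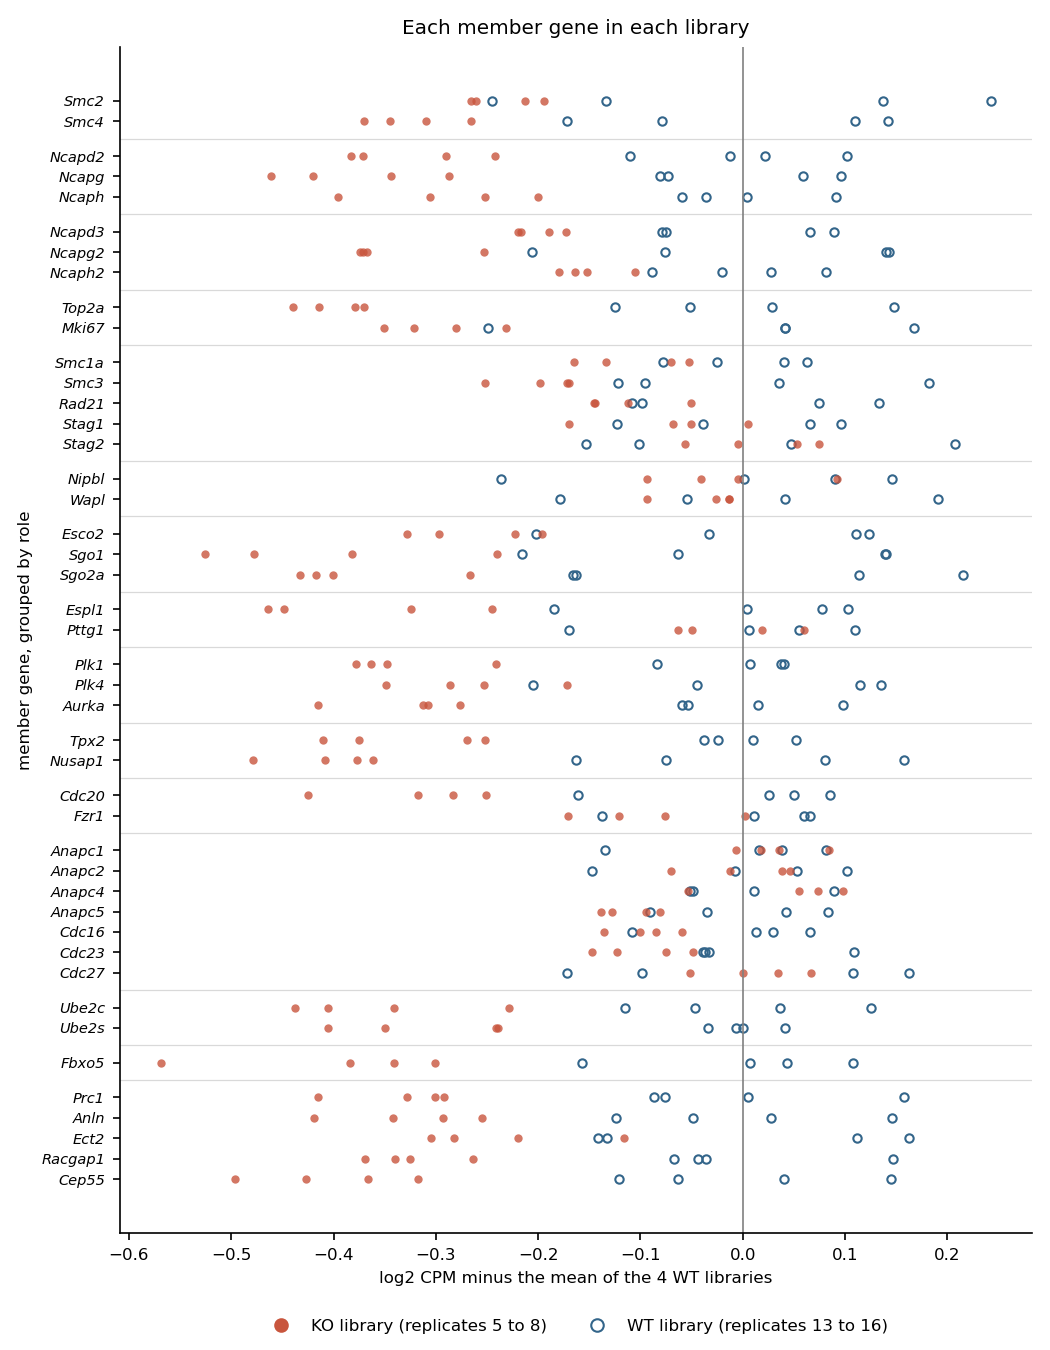
Log2 CPM of each of the 44 genes in each library, minus the mean of the 4 WT libraries, with genes grouped by role (filled points, 4 KO libraries; open points, 4 WT libraries). KO points lie left of all WT points for 25 genes, most of them in the condensin, kinase, spindle, E2 enzyme and cytokinesis rows, while KO and WT points overlap in 6 of the 7 APC/C core rows and in both cohesin loader and release rows.

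**Figure D2:**
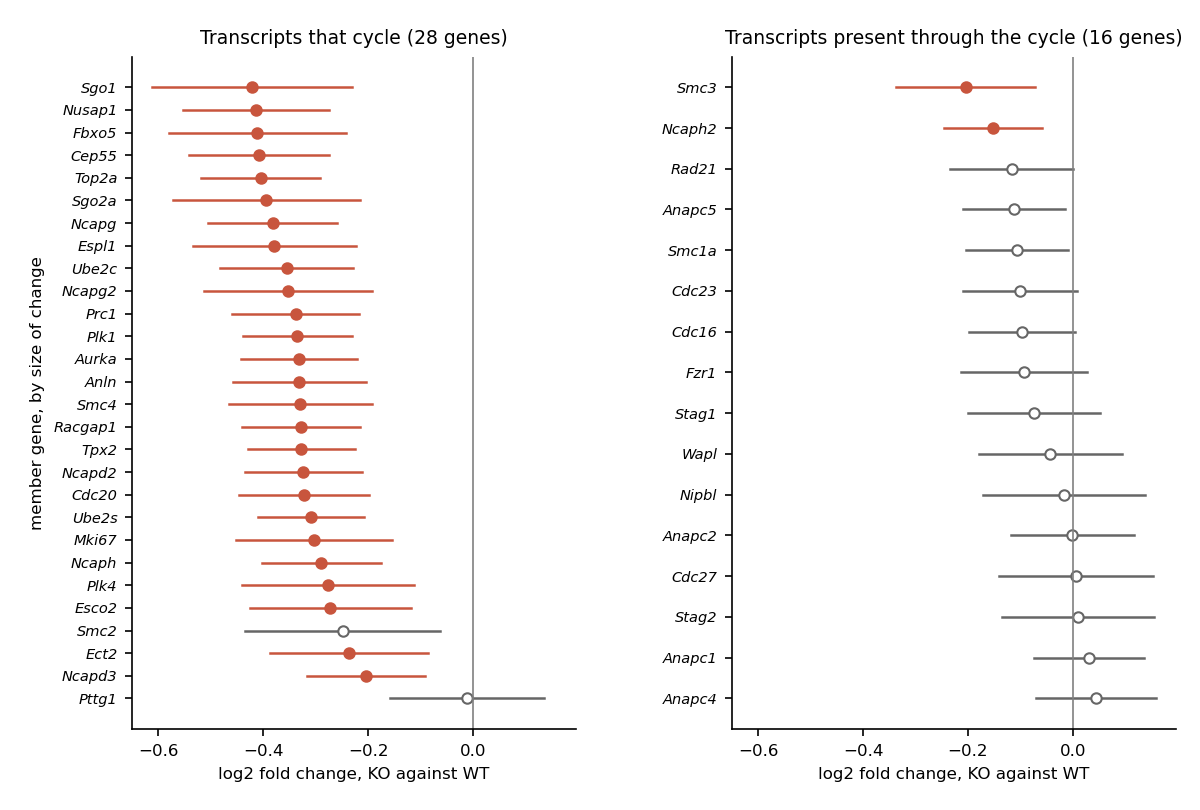
Fitted log2 fold change of KO against WT with its 95% confidence interval for 28 cycling transcripts (left) and 16 transcripts present through the cycle (right), ordered by size, with filled red points for an edgeR adjusted p under 0.05. Filled points number 26 on the left, where Smc2 and Pttg1 are open, and 2 on the right.

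Promoter sequence played no part in the choice of the genes. Many late cell cycle promoters carry a cell cycle genes homology region (CHR), the letters TTTGAA or TTCGAA, near the transcript start, where the MuvB complex is known to bind, repressing the gene in resting cells and, with B-MYB and FOXM1, activating it before mitosis. RefSeq promoter sequence (GRCm38.p6, 250 bases before to 50 after each listed start) was found for 37 of the 44 genes, with 42 starts, and not for Smc4, Rad21, Stag2, Nipbl, Esco2, Tpx2 and Cdc23. CHR letters on either strand stood in 20 of 25 cycling genes (80.0%), in 1 of 12 genes with a transcript present through the cycle (8.33%, Ncaph2) and in 21.7% of 27025 genes with a promoter. Within 50 bases of the start they stood in 64.0%, 8.33% and 6.12%. CCAAT letters (CCAAT or ATTGG), bound by NF-Y, were found in 16 of 25 cycling genes, 6 of 12 others and 41.1% of all, and both motifs together in 60.0%, 0.0% and 8.61%. The windows below, 30 bases each on the gene's strand, 5′ to 3′, show the CHR letters in capitals. They come from condensin, separase, kinase, APC/C and cytokinesis genes that were chosen because they fell, all with the letters within 30 bases of a start. Windows of other genes that fell are not shown, among them Ncapd2, Mki67 and Ube2s, where the letters stand 123, 98 and 162 bases away. TTCAAA is TTTGAA on the other strand.
Ncapg (plus strand, chr5:45669883-45669912): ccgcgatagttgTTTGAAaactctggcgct
Ncapg2 (plus strand, chr12:116405406-116405435): tacgcgggtgtgTTTGAAtctggtccgagc
Ncaph2 (plus strand, chr15:89355685-89355714): cttctttacttcTTCGAAactgggcccgcc
Espl1 (plus strand, chr15:102296254-102296283): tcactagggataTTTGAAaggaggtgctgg
Plk1 (plus strand, chr7:122159453-122159482): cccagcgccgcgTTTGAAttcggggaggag
Cdc20 (minus strand, chr4:118437344-118437373): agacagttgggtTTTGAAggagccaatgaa
Ube2c (plus strand, chr2:164769888-164769917): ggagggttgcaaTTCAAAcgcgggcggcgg
Prc1 (plus strand, chr7:80294434-80294463): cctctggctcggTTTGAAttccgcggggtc
Cep55 (plus strand, chr19:38054996-38055025): acagccgcgggaTTCAAActcccggaagcg
In Ncapg, Espl1 and Ube2c the first capital stands 30, 27 and 29 bases before the first listed start. In Ncaph2 the distance before the start is 22 bases, in Ncapg2 and Cdc20 18 bases and in Prc1 5 bases. In Plk1 and Cep55 the first capital stands 30 and 24 bases after the start. Counted from their second listed starts, the same letters stand 30 bases before in Prc1 and 33 bases before in Cep55.

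The 100 bases before the listed start of Top2a, a cycling gene with the smallest adjusted p of the 44, and of Smc1a, a cohesin gene that did not pass, are set side by side. They are an example with CHR letters and an example without, with CHR and CCAAT letters in capitals.
Top2a (minus strand, chr11:99024190-99024289): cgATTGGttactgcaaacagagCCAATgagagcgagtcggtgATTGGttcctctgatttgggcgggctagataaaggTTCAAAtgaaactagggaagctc
Smc1a (plus strand, chrX:152016328-152016427): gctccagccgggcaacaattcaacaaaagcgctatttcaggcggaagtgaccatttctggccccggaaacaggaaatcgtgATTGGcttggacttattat
Top2a held 3 CCAAT matches, which occur on both strands, and 1 CHR match, and no match overlapped another. Smc1a held 1 CCAAT match and no CHR letters in this window. Longer E2F letters (TTTGGCGC, TTTCCCGC, TTTGCCGC or TTTCGCGC, either strand) were found in 3 of 25 cycling genes, 2 of 12 others and 2.6% of all. Among the 10901 tested genes with a promoter, the shares were 16.9% for CHR letters, 4.66% for CHR letters within 50 bases of the start, 42.9% for CCAAT letters, 7.17% for both motifs and 4.55% for the E2F letters. Calls and CHR letters did not always go together. CHR letters were absent around the listed starts of Ncaph, Sgo2a, Plk4, Nusap1 and Smc3, which fell, and present in Smc2, which did not pass. Some listed starts lie inside the gene. Among genes with a transcript present through the cycle, those of Stag1, Wapl and Anapc5 lie 45739, 1549 and 997 bases inside, without CHR letters. Among cycling genes, those of Sgo1, Pttg1 and Ncapd2 lie 2016, 1482 and 514 bases inside, with CHR letters in Sgo1 and Ncapd2. Ncapd3 counts as a gene with CHR letters only through its second listed start, 30251 bases inside. The part of such starts in the shares was not tested. All these matches are letters in a window and no measurement of binding, and the difference between the sets was not tested.

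**Figure D3:**
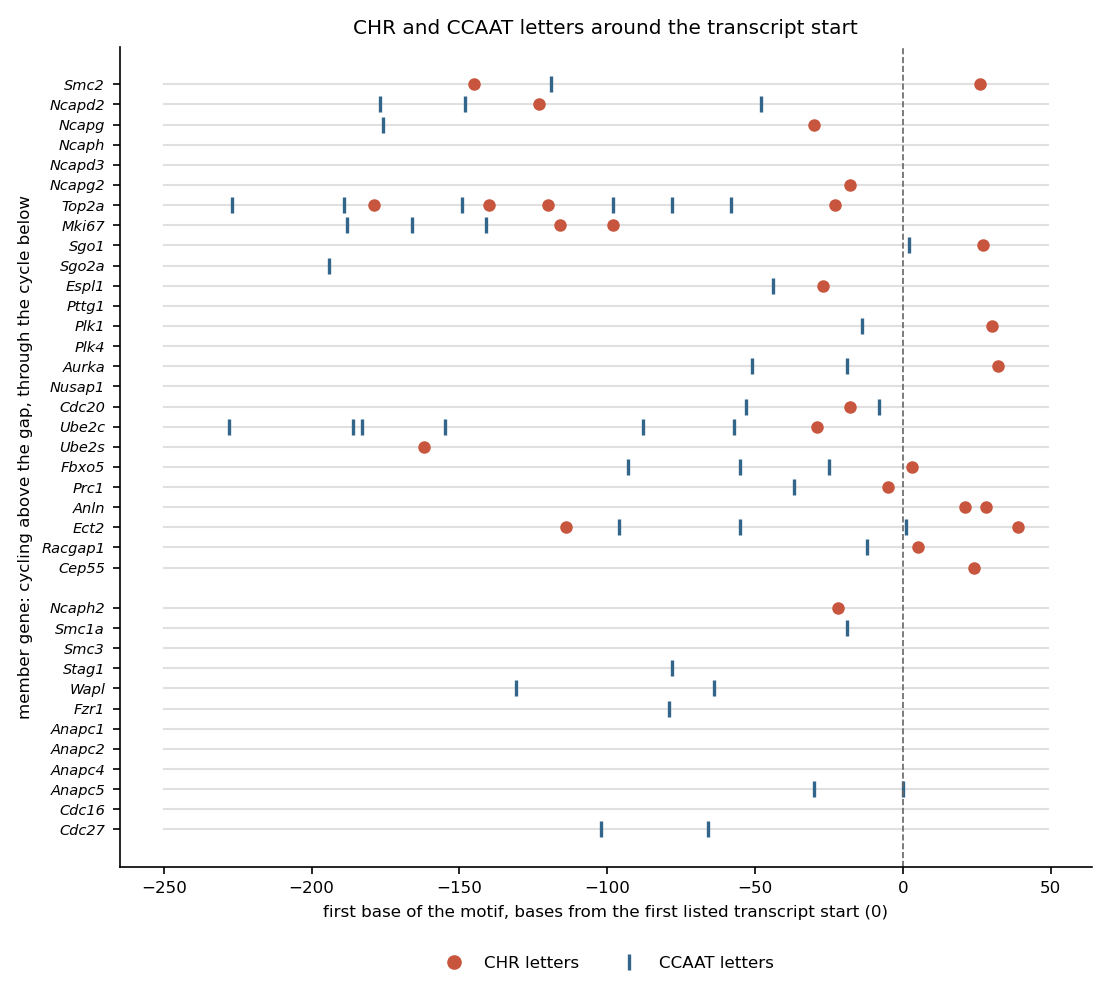
First base of each CHR match (red points) and CCAAT match (blue bars) in bases from the first listed transcript start of each gene, with cycling genes above the gap and genes with a transcript present through the cycle below. Most red points lie within 50 bases of the start among the cycling genes, and the lower rows hold 1 red point, in Ncaph2.

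Condensin genes fell, 7 of 8, against 8.26% of all tested genes. Condensin I and condensin II share the ATPases Smc2 and Smc4 and differ in 3 further subunits each. In the text, library values are CPM in the order KO replicates 5, 6, 7 and 8, then WT replicates 13, 14, 15 and 16. Smc4 (chr3:69004738-69034623) read 129.6, 134, 126 and 124 in KO and 177, 152, 174 and 143 in WT, with no overlap, and fell by 20.4% (log2 fold change -0.33 ± 0.063 SE, adjusted p = 0.00312). Its partner Smc2 (chr4:52439221-52488365) read 67.4, 64.3, 66.5 and 64.1 in KO and 84.9, 65.0, 91.3 and 70.3 in WT. The Smc2 libraries overlapped, since WT replicate 14 lay between the KO values, and the gene did not pass (log2 fold change -0.25 ± 0.086 SE, adjusted p = 0.0688). It passed without WT replicate 14 (adjusted p = 0.00798), without WT replicate 16 (0.0467), with the DESeq2 Wald test (0.0329) and after the smooth on length and GC content (0.000618).

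For condensin I, which gains access to chromosomes once the nuclear envelope breaks down, all 3 subunits fell, at log2 fold changes from -0.29 to -0.38. Ncapg, a HEAT-repeat subunit (chr5:45669891-45700547), read 39.4, 43.2, 41.5 and 38.2 in KO and 55.0, 50.2, 56.5 and 49.9 in WT. The groups were separate, and the drop was 23.3% (log2 fold change -0.38 ± 0.057 SE, adjusted p = 0.000568). Ncapd2, the other HEAT-repeat subunit, read 105, 109, 99.5 and 98.7 in KO and 138, 128, 119 and 131 in WT, again without overlap (log2 fold change -0.32 ± 0.052 SE, adjusted p = 0.000905). Ncaph, the kleisin that closes the ring, read 60.9, 63.1, 58.7 and 55.1 in KO and 77.3, 72.8, 69.7 and 70.8 in WT and fell by 18.2% (log2 fold change -0.29 ± 0.053 SE, adjusted p = 0.0022). Exons of Ncapg share 13.4% of their length with Lcorl on the opposite strand (the sources used here do not say whether reads were counted by strand).

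For condensin II, which is nuclear throughout the cycle, all 3 subunits fell as well. Ncapg2 read 33.0, 32.8, 35.8 and 32.9 in KO and 47.1, 36.9, 47.2 and 40.5 in WT and fell by 21.7% (log2 fold change -0.35 ± 0.074 SE, adjusted p = 0.00578). Its KO values lay close together apart from replicate 7, the highest. Ncapd3 read 34.0, 33.3, 34.4 and 33.4 in KO and 40.7, 36.8, 41.4 and 36.9 in WT, a drop of 13.2% (log2 fold change -0.20 ± 0.052 SE, adjusted p = 0.0174). Ncaph2, the kleisin of this complex, read 182, 173, 176 and 175 in KO and 207, 193, 184 and 199.5 in WT and fell by 9.99%, the smallest called change of the 44 (log2 fold change -0.15 ± 0.043 SE, adjusted p = 0.0298). In each of these genes the KO libraries were all below the WT libraries. Ncapd3 no longer passed when KO replicate 8 (adjusted p = 0.0604) or WT replicate 13 (0.0609) was left out, nor Ncaph2 when WT replicate 13 or 16 or KO replicate 6, 7 or 8 was (0.0597 to 0.103). Of the Ncaph2 exons 19.8% are shared with Sco2 and 12.7% with Tymp, both on the other strand.

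Top2a and Mki67, which work on the surface and axis of mitotic chromosomes, both fell. Top2a, the topoisomerase that untangles sister chromatids (chr11:98992947-99024199), read 228, 234, 235 and 224 in KO and 337, 279, 310.1 and 293 in WT. No KO library reached the lowest WT value, and the drop was 24.5% (log2 fold change -0.40 ± 0.053 SE, adjusted p = 0.000214). Mki67, whose protein Ki-67 coats mitotic chromosomes and is the usual stain for proliferation (chr7:135689784-135716450), read 308, 317, 328 and 302 in KO and 432, 324, 396 and 396 in WT. WT replicate 14 fell among the KO values, so the groups overlapped, and the drop was 19.0% (log2 fold change -0.30 ± 0.069 SE, adjusted p = 0.00894). The ratio of Mki67 to Top2a in the authors' TPM (transcript share scaled for length) was 0.707 ± 0.0110 in KO against 0.659 ± 0.0411 in WT (n = 4, SD), and the libraries overlapped.

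Most genes of the cohesin ring did not pass the test. Of the ring and STAG genes 1 of 5 fell, and of the loader and release genes 0 of 2, where 8.26% of all tested genes fell. Smc3, an ATPase of the ring (chr19:53600396-53645831), read 77.1, 78.6, 74.3 and 78.5 in KO and 90.7, 81.3, 100.5 and 82.8 in WT. It fell by 13.2% without overlap (log2 fold change -0.20 ± 0.062 SE, adjusted p = 0.0388), but did not pass when WT replicate 13 or 15 or any KO library was left out (adjusted p = 0.0603 to 0.115), nor with no low-count filter (0.0675). Its partner Smc1a (chrX:152016428-152061973) read 107, 113, 112 and 105 in KO and 121, 116, 123 and 111 in WT. WT replicate 16 lay among the KO values, and the gene did not pass (log2 fold change -0.11 ± 0.045 SE, adjusted p = 0.138). Stag2, a STAG subunit that binds the ring, read 215, 208, 224 and 228 in KO and 223, 194, 249.7 and 202 in WT, with a KO range inside the WT range (log2 fold change 0.01 ± 0.067 SE, adjusted p = 0.947). Rad21, the kleisin that separase cuts, lay between 302 and 322 CPM in KO and between 309 and 366 CPM in WT (log2 fold change -0.12 ± 0.054 SE), and Stag1 had a log2 fold change of -0.07 ± 0.059, and neither passed.

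Nipbl, which loads cohesin onto DNA, read 104, 100.2, 114 and 107 in KO and 118, 90.7, 114 and 107 in WT. Its WT values spanned those of KO, at a log2 fold change of -0.02 (95% interval -0.17 to 0.14, adjusted p = 0.916). Wapl, which opens the ring and releases it, read 206, 196, 207 and 207 in KO and 215, 185, 239 and 202 in WT, also with the KO range inside the WT range (log2 fold change -0.04 ± 0.064 SE, adjusted p = 0.723). Other cohesin regulators listed were Pds5a, Pds5b, Mau2, Esco1, Cdca5 and Hdac8. Of these 0 of 6 were called in either direction, where 8.26% of all tested genes fell and 7.63% rose. The median log2 fold change of the 6 was -0.014. The most abundant of them, Pds5a, a partner of Wapl, averaged 162 ± 5.80 CPM in KO against 163 ± 12.5 CPM in WT (n = 4, SD). The signs of the values near 0 for Stag2, Nipbl, Wapl and Pds5a turned when single libraries were left out.

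Of the genes that establish and guard cohesion in dividing cells 3 of 3 fell, against 8.26% of all tested genes. Sgo1, the shugoshin that shields centromeric cohesin from the mitotic release pathway (chr17:53674786-53691331), read 15.1, 17.9, 14.6 and 16.2 in KO and 23.4, 20.3, 23.4 and 18.2 in WT. Every KO value was below every WT value, and the drop of 25.3% was the largest of the 44 genes (log2 fold change -0.42 ± 0.088 SE, adjusted p = 0.00554). Sgo2a, its relative at centromeres (chr1:57985340-58026277), read 34.3, 31.2, 30.9 and 30.5 in KO and 44.8, 36.9, 48.1 and 36.8 in WT and fell by 23.9%, again without overlap (log2 fold change -0.39 ± 0.083 SE, adjusted p = 0.00559). Esco2, the acetyltransferase that locks cohesin onto replicating DNA (chr14:65819027-65833969), read 23.5, 22.3, 23.9 and 21.8 in KO and 29.9, 26.8, 29.7 and 23.8 in WT. WT replicate 16 lay just below KO replicate 7, the only crossing (log2 fold change -0.27 ± 0.071 SE, adjusted p = 0.0197). Esco2 no longer passed when WT replicate 13 or KO replicate 6 or 8 was left out (adjusted p = 0.0529 to 0.0738), nor when WT replicates 14 and 15 both were (0.0825). Exons of Sgo2a share 35.0% of their length with Kctd18 on the opposite strand.

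Of 2 tested meiotic cohesin genes 1 rose, where 7.63% of all tested genes rose. Rec8, the meiotic kleisin, averaged 9.65 ± 0.759 CPM in KO against 4.96 ± 1.37 CPM in WT (n = 4, SD) and rose, with all KO libraries above all WT libraries (0.96 ± 0.16 on the log2 scale, adjusted p = 0.000983). Stag3, at 0.403 ± 0.172 CPM in KO against 0.494 ± 0.274 CPM in WT, did not pass, and Smc1b and Rad21l were at 0 in every library.

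The separase gene fell and the securin gene did not pass. Espl1 encodes separase, the protease that cuts cohesin at anaphase (chr15:102296254-102324357), and read 24.0, 20.8, 22.7 and 20.6 in KO and 30.7, 28.6, 25.1 and 30.1 in WT. All 4 KO libraries were below all 4 WT libraries, and the drop was 23.1% (log2 fold change -0.38 ± 0.072 SE, adjusted p = 0.00307). Pttg1 encodes securin, the inhibitor that holds separase until the APC/C destroys it (chr11:43420244-43427463), and read 16.9, 17.9, 18.5 and 17.1 in KO and 18.4, 19.1, 15.7 and 17.8 in WT. Its libraries mixed, and the fitted change was -0.01 ± 0.068 (SE), with a 95% interval from -0.16 to 0.14 that does not reach the median of the cycling transcripts (edgeR adjusted p = 0.942). Pttg1 was the exception among the cycling transcripts that came nearest to 0. Its sign turned when WT replicate 13 or 14 or KO replicate 5 or 8 was left out, within -0.07 to 0.03. The start listed for Pttg1 lies 1482 bases inside the gene, and no CHR or CCAAT letters were found around it. In the authors' TPM the ratio of Espl1 to Pttg1 read 0.164, 0.135, 0.139 and 0.137 in KO and 0.190, 0.168, 0.185 and 0.195 in WT. The highest KO ratio, 0.164, lay just below the lowest WT ratio, 0.168. The difference between the changes of the 2 genes was not tested. Ratios of Plk1 to Plk4, Stag1 to Stag2, Ube2c to Ube2s, Ncapg to Ncapg2, Ncaph to Ncaph2 and Ncapd2 to Ncapd3 overlapped between genotypes.

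**Figure D4:**
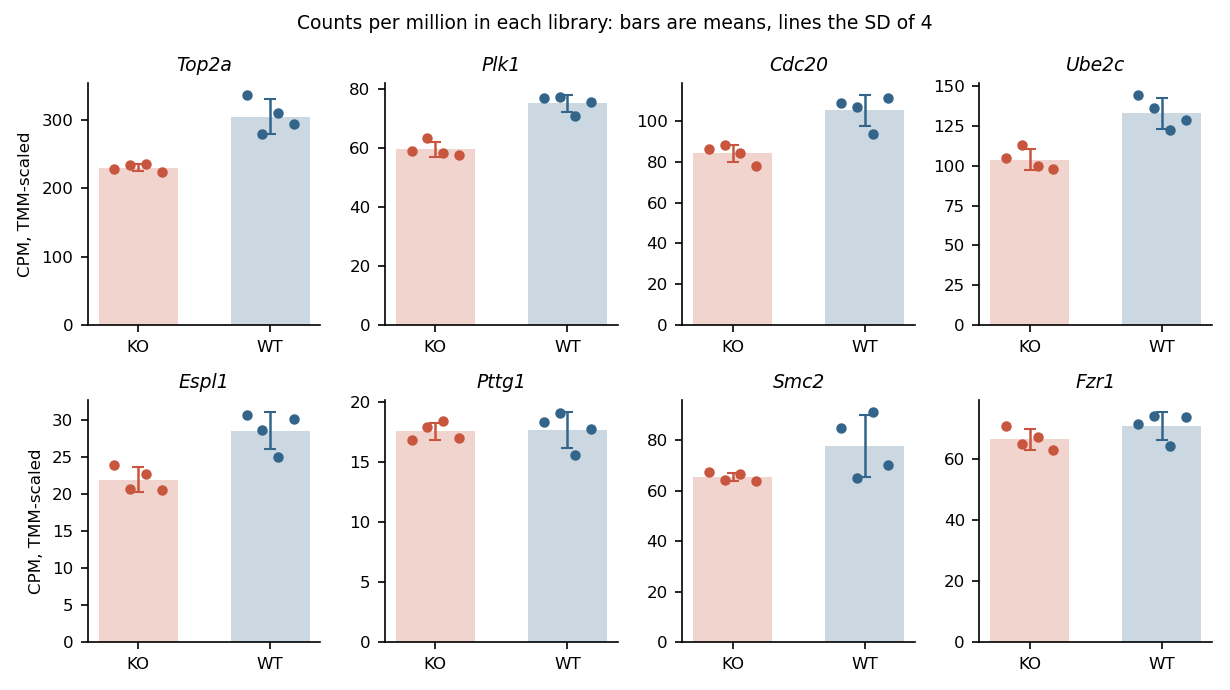
CPM of 8 genes in each library (points), with the mean (bar, from 0) and the SD of 4 libraries (line), KO in red and WT in blue. KO points lie below all WT points for Top2a, Plk1, Cdc20, Ube2c and Espl1, and overlap WT points for Pttg1, Smc2 and Fzr1.

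Mitotic kinase genes fell, 3 of 3, against 8.26% of all tested genes. Plk1, which drives mitotic entry, spindle assembly and cytokinesis (chr7:122159435-122169884), read 58.9, 63.5, 58.3 and 57.7 in KO and 77.1, 77.2, 70.8 and 75.5 in WT. The libraries of each genotype lay close together and apart from the other, at a drop of 20.7% (log2 fold change -0.33 ± 0.048 SE, adjusted p = 0.000437). Aurka, the centrosome kinase (chr2:172356190-172370886), read 44.1, 43.0, 43.1 and 40.0 in KO and 57.3, 54.1, 51.5 and 51.3 in WT and fell by 20.6% without overlap (log2 fold change -0.33 ± 0.051 SE, adjusted p = 0.000744). Plk4, which starts the duplication of centrioles (chr3:40799951-40816883), read 21.1, 19.5, 19.96 and 18.6 in KO and 26.3, 20.6, 25.9 and 23.1 in WT. Here WT replicate 14 lay below KO replicate 5, and the drop was 17.4% (log2 fold change -0.28 ± 0.076 SE, adjusted p = 0.0254). Plk4 did not pass when WT replicate 13 or 15 or KO replicate 6, 7 or 8 was left out (adjusted p = 0.0526 to 0.0886).

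Both spindle assembly genes fell. Tpx2, which activates Aurora A on microtubules (chr2:152847964-152895321), read 90.7, 91.9, 84.3 and 82.2 in KO and 114, 108, 110.2 and 107 in WT. The gap between the genotypes was wider than the spread within either (log2 fold change -0.33 ± 0.047 SE, adjusted p = 0.00044). Nusap1, which bundles spindle microtubules next to chromosomes (chr2:119618298-119650165), read 63.8, 63.1, 61.8 and 58.8 in KO and 91.7, 77.9, 86.8 and 73.3 in WT and fell by 25.0%, also without overlap (log2 fold change -0.41 ± 0.064 SE, adjusted p = 0.000759). In a wider list of kinase, centriole and spindle genes 10 of 13 fell and 0 rose, against 8.26% and 7.63% of all tested genes. Aurkb, the kinase of the chromosomal passenger complex, fell by 0.55 ± 0.057 on the log2 scale (adjusted p = 3.46e-05), and Cdca8, a subunit of the same complex, had a log2 fold change of -0.36 ± 0.050 (adjusted p = 0.000378). Those that did not pass were the centriole and centrosome genes Cep192, Cep152 and Sass6, named after their values were seen, at -0.08, -0.0037 and -0.25.

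None of the 7 core subunits of the APC/C passed the test, a count close to the share of all tested genes (8.26% fell and 7.63% rose). Both E2 enzymes, the activator Cdc20 and the inhibitor Fbxo5 fell. Anapc5, a scaffold subunit (chr5:122787459-122822339), read 109.6, 114, 113 and 110.4 in KO and 118, 128, 113 and 124 in WT. WT replicate 15 lay between the KO values, and the gene did not pass (log2 fold change -0.11 ± 0.045 SE, adjusted p = 0.117), though it did without WT replicate 15 (adjusted p = 0.0298). Cdc16, a subunit with tetratricopeptide repeats, read 72.4, 74.5, 70.7 and 73.2 in KO and 78.4, 81.3, 79.3 and 72.0 in WT, and 1 WT library, replicate 16, was inside the KO range (log2 fold change -0.10 ± 0.047 SE, adjusted p = 0.19). Anapc2, the cullin subunit of the catalytic core (chr2:25272466-25285916), read 92.4, 99.6, 96.2 and 100.2 in KO and 96.6, 104, 87.6 and 101 in WT (log2 fold change -0.0017 ± 0.054 SE, adjusted p = 0.989). Its groups overlapped almost fully, and the sign of its change turned with the scaling. The other core subunits, Anapc1, Anapc4, Cdc23 and Cdc27, had log2 fold changes of 0.03, 0.04, -0.10 and 0.006. For Cdc23 every KO library was below every WT library, although the gene did not pass (adjusted p = 0.211), and 13.4% of its exon length is shared with Kif20a on the opposite strand. Of 7 further subunits 1 fell, Anapc16, at -0.23 ± 0.047 on the log2 scale (adjusted p = 0.00425), and 0 rose, where 8.26% of all tested genes fell.

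Of the 2 activators of the APC/C 1 fell, where 8.26% of all tested genes fell. Cdc20, which directs the complex from metaphase to anaphase (chr4:118432901-118437343), read 86.1, 88.1, 84.1 and 78.0 in KO and 109, 107, 93.7 and 111 in WT. All KO values were below all WT values, and the gene fell (log2 fold change -0.32 ± 0.058 SE, adjusted p = 0.00204). Fzr1, which encodes Cdh1, the activator of late mitosis and G1 (chr10:81366879-81378370), read 70.9, 65.1, 67.1 and 62.8 in KO and 71.3, 74.1, 64.3 and 73.8 in WT. WT replicate 15 was inside the KO range, and the gene did not pass (log2 fold change -0.09 ± 0.055 SE, adjusted p = 0.301). The ratio of Cdc20 to Fzr1 in the authors' TPM read 1.54, 1.71, 1.58 and 1.57 in KO and 1.92, 1.82, 1.84 and 1.91 in WT, with no overlap, and the difference between the changes of the 2 genes was not tested.

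Ube2c and Ube2s, the E2 enzymes that start and extend ubiquitin chains on APC/C targets, were the most abundant of the 44 genes per length. In the authors' TPM, Ube2c stood at 223 ± 11.8 in KO against 279 ± 18.3 in WT, and Ube2s at 184 ± 8.76 against 223 ± 4.73 (n = 4, SD). In counts, Ube2c (chr2:164769929-164772902) read 105, 113, 100.01 and 97.8 in KO and 145, 136, 122 and 128 in WT. It fell by 21.8% without overlap (log2 fold change -0.36 ± 0.059 SE, adjusted p = 0.00117), and 22.8% of its exon length is shared with Tnnc2 on the other strand. Ube2s (chr7:4808014-4812340) read 95.5, 95.3, 88.4 and 85.0 in KO and 110.1, 116, 112 and 113 in WT, with WT values that lay close together and above all KO values (log2 fold change -0.31 ± 0.047 SE, adjusted p = 0.000648). Fbxo5, which encodes Emi1, the inhibitor that keeps the APC/C off in S and G2 phase (chr10:5799158-5805465), read 12.4, 13.2, 10.8 and 12.8 in KO and 16.8, 14.6, 17.6 and 16.4 in WT. KO replicate 7 was the lowest, no KO library reached the WT values, and the drop was 24.8% (log2 fold change -0.41 ± 0.079 SE, adjusted p = 0.00307).

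Of 11 genes whose proteins the APC/C marks for destruction 10 fell and 0 rose, where 8.26% of all tested genes fell and 7.63% rose. The median log2 fold change of the 11 was -0.31. The smallest adjusted p-values were those of Kif22, a chromosome-arm kinesin, at -0.42 ± 0.057 on the log2 scale (adjusted p = 0.000275), and of Tk1, the thymidine kinase of dividing cells, at -0.35 ± 0.053 (adjusted p = 0.000646). Rrm2, a subunit of ribonucleotide reductase named after its value was seen, was the 1 gene that did not pass, at -0.13 ± 0.057 (adjusted p = 0.149).

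Cytokinesis genes of the central spindle and midbody fell, 5 of 5, against 8.26% of all tested genes. Cep55, which recruits the abscission machinery to the midbody (chr19:38054970-38074425), read 47.2, 45.6, 43.7 and 41.6 in KO and 65.2, 56.4, 60.6 and 54.1 in WT. The groups were separate, and the drop was 24.7% (log2 fold change -0.41 ± 0.062 SE, adjusted p = 0.000642). Racgap1, a centralspindlin subunit (chr15:99620496-99651656), read 84.5, 81.0, 78.5 and 80.2 in KO and 112, 98.5, 97.0 and 99.1 in WT, with WT replicate 13 well above the other WT libraries and all of them above KO (log2 fold change -0.33 ± 0.052 SE, adjusted p = 0.000885). Ect2, the exchange factor that switches on RhoA at the cell equator (chr3:27097222-27154253), read 139, 129, 124 and 122 in KO and 169, 137, 163 and 136 in WT. KO replicate 5 lay above WT replicates 14 and 16, so the groups overlapped (log2 fold change -0.24 ± 0.070 SE, adjusted p = 0.0355). Ect2 was not called when WT replicate 13 or 15 or KO replicate 6, 7 or 8 was left out (adjusted p = 0.0688 to 0.117), nor with no low-count filter (0.0609). Prc1, which bundles the central spindle, and Anln, which links the contractile ring to RhoA, fell without overlap, at log2 fold changes of -0.34 ± 0.056 and -0.33 ± 0.059 (SE). Exons of Prc1 share 11.1% of their length with Rccd1 on the other strand, and such overlaps make up 7.09% in Plk1, 4.24% in Nusap1, 3.56% in Ube2s and 2.84% in Cdc20.

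In a wider list of cytokinesis genes 5 of 17 tested fell and 0 rose, against 8.26% and 7.63% of all tested genes. The 5 were the kinesins Kif23, Kif20a, Kif20b and Kif4 and the midbody kinase gene Cit, with the smallest adjusted p-values for Kif4 (-0.43 ± 0.055 on the log2 scale, adjusted p = 0.000186) and Kif20a (-0.32 ± 0.051, adjusted p = 0.000945). The 12 that did not pass include contractile, septin and membrane scission genes such as Myh9 (0.05 ± 0.041), Rhoa (-0.04 ± 0.041), Sept2 (-0.04 ± 0.051) and Chmp4b (-0.09 ± 0.039), and Pdcd6ip, an abscission gene with every KO library above every WT library (0.11 ± 0.039, adjusted p = 0.0682), all named after their values were seen.

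Levels per length and changes are plotted together for the 44 genes. Mean TPM over the 8 libraries ran from 7.46 (Espl1) to 251 (Ube2c) for the cycling transcripts and from 12.8 (Stag1) to 176 (Rad21) for the others, so the ranges of the 2 sets overlapped. Genes that fell were found at both ends: Espl1 at 6.56 ± 0.540 TPM in KO against 8.36 ± 0.645 TPM in WT, and Ube2c at the top. Rad21, with 171 ± 4.82 TPM in KO against 182 ± 18.3 TPM in WT (n = 4, SD), followed Ube2s in level and did not pass.

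**Figure D5:**
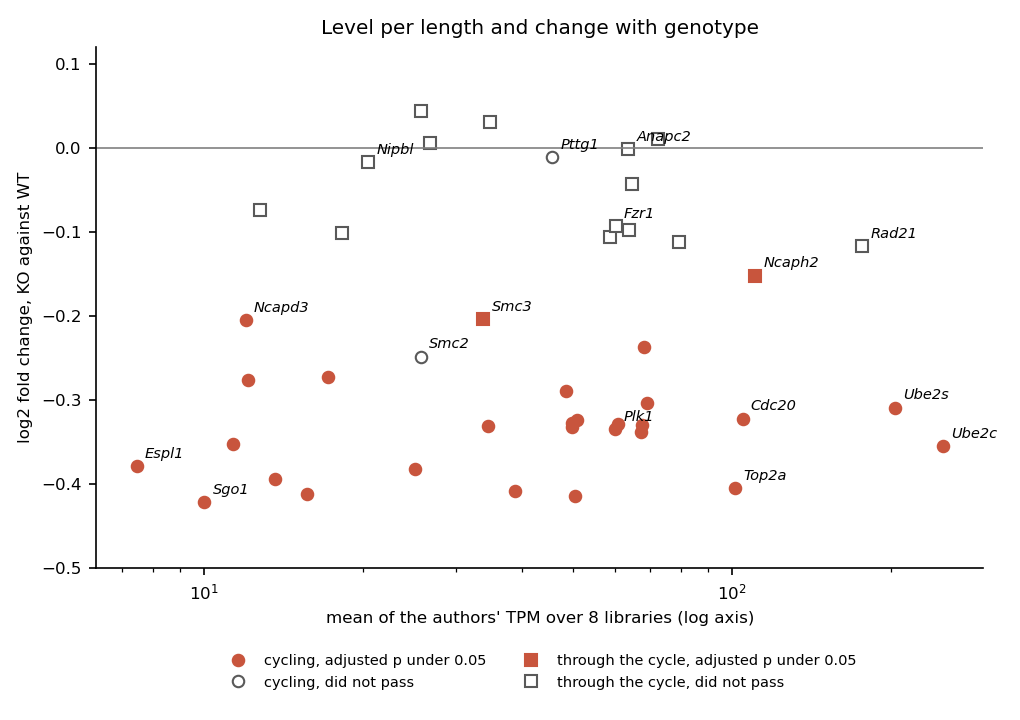
Log2 fold change of KO against WT plotted against the mean of the authors' TPM over the 8 libraries (log axis) for the 44 genes, with circles for cycling transcripts, squares for transcripts present through the cycle and filled symbols for an edgeR adjusted p under 0.05. The circles lie at -0.20 or lower at every level except Pttg1, and most squares lie between -0.12 and 0.04.

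The libraries of a genotype also differed in how far these genes moved together. KO replicate 8 had the lowest KO value for 22 of the 28 cycling transcripts, and WT replicate 13 the highest WT value for 18. The same counts were not made over all tested genes, and genes in the same library are not separate observations. The median over the cycling transcripts, as log2 CPM relative to the WT mean, was -0.29, -0.28, -0.34 and -0.39 in the KO libraries and 0.12, -0.07, 0.03 and -0.05 in the WT libraries. No KO median reached a WT median. Over the 16 transcripts present through the cycle the same medians were -0.05, -0.09, -0.04 and -0.08 in KO and 0.04, -0.04, 0.09 and -0.05 in WT, and they overlapped. Of the 28 genes that fell 22 were called in all 8 fits that left out 1 library.

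Of 12 regulators of mitotic transcription 2 fell and 0 rose, where 8.26% of all tested genes fell. The 2 were Mybl2, which encodes B-MYB, at -0.32 ± 0.055 on the log2 scale (adjusted p = 0.00154), and Foxm1 at -0.29 ± 0.063 (adjusted p = 0.00713), and both transcripts themselves cycle. The MuvB subunits Lin9, Lin37, Lin52 and Lin54, named after their values were seen, had log2 fold changes of -0.24, -0.10, -0.05 and -0.16, and none passed.

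Other markers of dividing cells, in lists chosen with earlier results of these data known, moved with these genes. Of 43 S phase markers 27 fell and 0 rose, with a median log2 fold change of -0.26, and of 43 G2 and M phase markers outside the 44 genes 35 fell and 0 rose, with a median of -0.30. Of all tested genes 8.26% fell and 7.63% rose. Some of the markers that fell were already counted in lists above: Gmnn and Cdc6 of the S phase list. In the G2 and M phase list these were Aurkb, Birc5, Cdca8, Ckap2, Hmmr, Ccnb2, Nek2, Cdca3, Kif23 and Kif20b. Markers of cell types moved as well. Of the 10 epithelial markers 2 rose, Vil1 and Cdx2, 1 fell, Elf3, and 7 did not pass. Of 16 colonocyte markers 11 rose and 2 fell, Aqp8 and Mxd1, and log2 fold changes in this list ran from -1.28 to 0.98. The summed level of the 16 was 7786 to 8090 CPM in KO and 5528 to 6050 CPM in WT. Of 11 tested crypt stem cell markers 5 fell and 1 rose (summed level 1547 to 1661 CPM in KO and 1557 to 1861 CPM in WT), with Cdca7 also counted among the S phase markers. Of 11 tested goblet cell markers 5 fell and 0 rose (116 to 147 CPM and 161 to 219 CPM, with Retnlb at 0), and of 10 enteroendocrine markers 3 fell and 0 rose (19.1 to 28.2 CPM and 27.96 to 40.7 CPM). Of 6 tuft cell markers 1 was tested, Avil, which fell (-0.91 ± 0.28 on the log2 scale, adjusted p = 0.0441), and the list summed to 0.301 to 0.662 CPM in KO and 0.646 to 0.935 CPM in WT, with Pou2f3 and Il25 at 0. The fibroblast markers summed to 5.90 to 7.32 CPM in KO and 4.26 to 6.88 CPM in WT and the immune markers to 1.37 to 11.5 CPM and 1.16 to 1.58 CPM, with 0 called of 2 tested in each. The part of these cell type differences in the values of the 44 genes was not tested.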

How the data were processed

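RNA was sequenced from 4 KO and 4 WT colonic organoid libraries. Per the labels' protocols, stranded libraries were prepared from 1 µg of RNA whose integrity number exceeded 7.0. The authors deposited raw counts, whole numbers for each gene in each library. Per the submitters' processing notes the authors used GRCm38, HTSeq, Bowtie2, TopHat2 and TopHat (no version or role is listed). The authors' TPM values, per transcript length, were deposited beside the counts and used only to describe levels between genes. The authors' FPKM values, also deposited, were not analysed here. Counts of 2 outnumber counts of 1 in each library, so both mates of a pair may have been counted.

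Groups came from the genotype labels. After filterByExpr and TMM scaling, genes were tested over all 8 libraries with the quasi-likelihood F test of edgeR 4.0.16 (R 4.3.3), with Benjamini-Hochberg adjustment over 14945 genes and a threshold of 0.05. SE is the size of the log2 fold change over the square root of F. Library depth of 37182098 to 49256171 counts limits precision, and a floor of 3 counts covers counting error only. On simulated data for the same comparison (14811 genes run) the step recovered 82% of genes changed 1.5-fold and 96% at 2-fold, and called 10 unchanged genes. Exon overlaps were read from GENCODE for GRCm38, and promoters and gene positions from RefSeq GRCm38.p6. Tables were handled with Python 3.11.15 and pandas 2.3.3, and plots drawn with matplotlib 3.10.9.

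The rule for the 44 genes held no measured value, but the genes, lists and classes were chosen with earlier results of these data known. For each role, library values are given for up to 2 genes with the smallest adjusted p and the gene with the largest. Other lists name up to 2 called genes, or the most abundant. Alternatives were other scalings, the DESeq2 1.42.0 Wald test, limma-voom (limma 3.58.1), no and a stricter low-count filter, counts halved, an adjusted p of 0.01 and leaving out each library. Added after seeing the data were a smooth on transcript length and GC content, the genes with both but no smooth, and leaving out WT replicates 14 and 15 together. No set test was run.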

Additional observations from a re-analysis of the deposited data

Results flagged for a closer look

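In 4 of 88 sets of 4 libraries of the 44 genes (1 gene in 1 genotype each), a single library stood far from the other 3. Chance marks about 1 set in 20, so 4 is close to what chance gives. Ncapg2 was at 35.8 CPM in KO replicate 7 and at 32.8 to 33.0 CPM in the other KO libraries. Wapl was at 196 CPM in KO replicate 6 and at 205.5 to 207 CPM in the others. Cdc23 was at 43.1 CPM in WT replicate 15 and at 38.9 to 39.0 CPM in the other WT libraries. Racgap1 was at 112.5 CPM in WT replicate 13 and at 97.0 to 99.1 CPM in the others. The calls of Ncapg2 and Racgap1 did not end when any 1 library was left out.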

How the results depend on the processing

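No paired analysis was possible because the replicate numbers are not shared between the genotypes. The median log2 fold change of the 44 genes stayed within -0.24 to -0.30 over the alternatives run, the count that rose was 0 under each, and the count that fell was 22 to 34 (22 to 29 when 1 library was left out, and 22 at an adjusted p of 0.01). Of the cycling transcripts 22 to 27 fell under each alternative. Of the transcripts present through the cycle 2 fell, but 1 with no low-count filter, 0 at an adjusted p of 0.01, 7 after the smooth on length and GC content, and 0 to 2 when 1 library was left out. Over all genes, 562 were higher and 597 lower at an adjusted p of 0.01, 1916 were lower after the smooth, and leaving out 1 library gave 696 to 1386 higher and 724 to 1404 lower.

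Signs turned only for genes that did not pass. Anapc2 was at 0.0010 with DESeq2 size factors and with the DESeq2 Wald test, 3.9e-05 with upper quartile scaling, 0.0021 with library totals alone and with no low-count filter, 0.0013 with limma-voom and 0.00071 after the smooth. After the smooth Stag2 was at -0.045, Anapc1 at -0.027 and Cdc27 at -0.039, and Anapc1 was at -0.014 without WT replicates 14 and 15. Leaving out 1 library gave -0.038 to 0.084 for Stag2, -0.089 to 0.034 for Nipbl, -0.098 to 0.025 for Wapl, -0.068 to 0.030 for Pttg1, -0.011 to 0.060 for Anapc1, -0.049 to 0.035 for Anapc2 and -0.048 to 0.063 for Cdc27. For Pds5a it gave -0.044 to 0.033. The cause of these shifts was not tested. Under the other scalings the median of all genes lay between 0.00089 and 0.0026. At 46% recovery of simulated 1.2-fold changes, in genes drawn at random and not from the 44, genes that did not pass may still differ. Among the 44, the lower ends of their 95% intervals ran from -0.43 for Smc2 and -0.23 for Rad21 to -0.07 for Anapc4 (log2 fold change). Such intervals cover only scatter among these libraries.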
